A study of Mus musculus with 12 samples.

Results

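Fatty acid synthesis was followed in mouse liver through the nascent RNA of 10 genes, chosen by name: the enzyme genes Acly, Me1, Acaca, Acacb, Fasn, Elovl6, Elovl5 and Scd1, and the regulators Srebf1 and Thrsp. The table listed 21490 gene symbols, and 9 of the 10 names were found in it as written. Me1 was listed under its older symbol Mod1, at the mm9 position of Me1, so all 10 were present. The signal of every one of them was above 6 reads per base pair (rpbp) in at least 1 library, the limit that 6284 of the symbols passed, and only those were tested.

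Nascent-Seq sequences RNA that is still bound to chromatin in purified nuclei, and so reads transcription more directly than the level of finished mRNA does. The livers came from male C57BL/6 mice of 3 to 6 months, with no transgene or mutation named, that had been housed in 12 hr of light and 12 hr of darkness for at least 2 weeks. They were taken every 4 hr at 6 zeitgeber times from ZT0, lights on, through ZT12, lights off, to ZT20, with 2 replicates each and 12 libraries in all. There was no control group, so the time points were compared with one another. How the mice were fed, and how many livers went into 1 library, are not given in the sources used here, so the p-values measure the spread between these libraries.

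The liver turns surplus carbohydrate into fat by de novo lipogenesis. Citrate leaves the mitochondria and is split into acetyl-CoA, the acetyl-CoA is carboxylated to malonyl-CoA, the fatty acid synthase builds palmitate from it with NADPH, and elongases and desaturases lengthen and desaturate the product. The pathway is known to be turned on by feeding, through insulin and the transcription factor SREBP-1c, and by glucose through ChREBP, and mice eat mostly at night.

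The 12 libraries were scaled by the authors to one number of reads, so library totals are not measures of depth, and the summed signal was 118342 to 160545 rpbp. Libraries of ZT8 and ZT20 had been run in 2 lanes and all others in 1, so the 12-hr pairs ZT12 and ZT0, ZT16 and ZT4, and ZT20 and ZT8 each compare libraries of equal lane number. Replicate 2 of ZT8 stood apart: its signal fell most steeply with the GC content of the exons, with a log2 deviation lower by 1.20 in the highest of 20 GC bins than in the lowest, where the other libraries lay between -0.57 and 0.52. Replicate 2 of ZT16 had the lowest median deviation over all tested symbols (-0.20 on the log2 scale). The 7 hepatocyte markers (Alb, Ttr, Apoa1, Apob, Serpina1a, Cps1 and Hnf4a) summed to between 689.8 and 1688.2 rpbp. Of the 4 adipocyte markers in the table (Adipoq, Cfd, Retn and Lep), the sum was at most 1.0 rpbp and Lep was listed at 0 in all libraries, so the defining markers of fat cells were at or near 0.

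Apart from ZT8, where the replicates disagreed, most of the 10 genes shared 1 outline. Signal was low at ZT12, around lights off, and high at ZT20 and ZT0, in the late night and at lights on, and both ZT12 libraries lay below both ZT20 libraries for 10 of 10 genes. This last comparison was chosen after its values were seen, and 26.2% of all tested symbols did the same. Against ZT0, both ZT12 libraries were lower for 9 of the 10, with Thrsp as the exception, where 22.5% of tested symbols did so. Libraries of the same time also differed: at ZT8, replicate 2 was above replicate 1 for every gene, by 2.06 times for Srebf1 to 14.1 times for Scd1. With both replicates in the mean, the highest time-point mean lay at ZT8 for 7 of the 10 genes (24% of tested symbols). It lay at ZT0 for 3, Srebf1, Fasn and Elovl5 (11.6% of tested symbols). In these bulk samples, fewer cells of a type and less RNA per cell cannot be told apart.

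**Figure D1:**
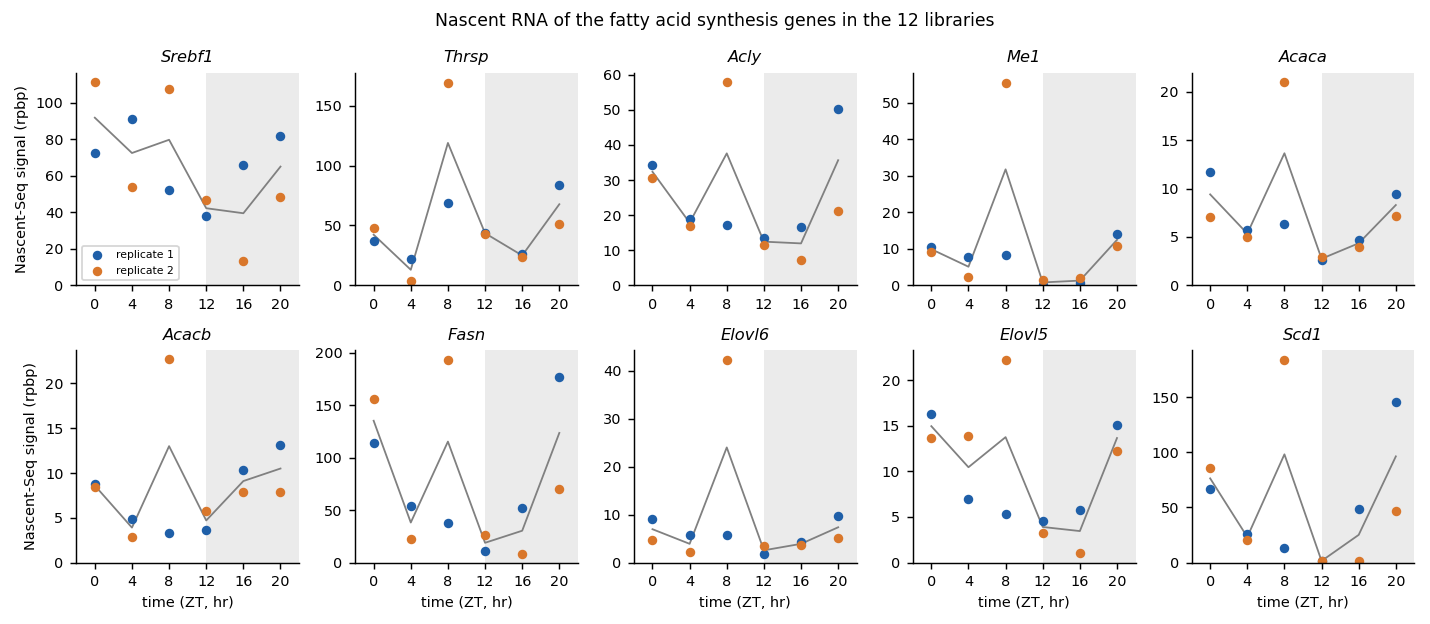
Nascent-Seq signal (rpbp, linear axis from 0) of the 10 genes against zeitgeber time, with 1 point per library, the grey line joining the means of the 2 replicates and the grey area marking the night. ZT12 is low in both replicates of most genes, while at ZT8 replicate 2 (orange) lies far above replicate 1 (blue), as for Scd1 at 183.3 against 13.0 rpbp.

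Srebf1 encodes the SREBP-1 proteins, the activators of the lipogenic enzyme genes (chr11:60012591-60034106 in mm9, minus strand). Its signal in replicates 1 and 2 was 72.4 and 111.3 rpbp at ZT0, 90.9 and 54.1 at ZT4, 52.1 and 107.4 at ZT8, 38.0 and 46.5 at ZT12, 65.8 and 13.2 at ZT16, and 81.7 and 48.4 at ZT20. Both ZT0 libraries lay above both ZT12 libraries, and the lowest value of the gene came from replicate 2 of ZT16. The mean was 91.9 ± 27.5 rpbp at ZT0 (SD, n = 2) and 42.3 ± 6.01 at ZT12, a log2 difference of -1.08 ± 0.63 (SE) that did not pass limma's test (adjusted p = 0.411). Srebf1 varied least of the 10 over the 12 libraries, with an SD of 0.445 of the mean.

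Thrsp encodes Spot 14, a small nuclear protein that is strongly induced with lipogenesis (chr7:104561467-104566020, minus strand). Its signal was 36.7 and 47.9 rpbp at ZT0, 22.4 and 3.6 at ZT4, 69.0 and 168.9 at ZT8, 44.1 and 43.0 at ZT12, 26.0 and 23.9 at ZT16, and 83.9 and 51.6 at ZT20. Its lowest time-point mean lay at ZT4, as did that of Acacb. At ZT12 both libraries of Thrsp were close to those of ZT0 (log2 difference 0.05 ± 0.64, limma adjusted p = 0.972). Both ZT8 libraries and both ZT20 libraries were above all ZT0, ZT4, ZT12 and ZT16 libraries. Its differences between time points of any shape had a limma adjusted p of 0.0568. The adjusted p was 0.0484 with a pseudocount of 3 in place of 1 and 0.00994 without replicate 1 of ZT4, so the call turned on these choices.

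Acly encodes ATP citrate lyase, which makes cytosolic acetyl-CoA from citrate (chr11:100337670-100389215, minus strand). The signal was 34.2 and 30.5 rpbp at ZT0, 18.8 and 16.9 at ZT4, 17.3 and 57.9 at ZT8, 13.5 and 11.4 at ZT12, 16.6 and 7.3 at ZT16, and 50.1 and 21.2 at ZT20. Replicates lay close together at ZT0, ZT4 and ZT12, and both ZT0 libraries were above both libraries of ZT4, of ZT12 and of ZT16. The difference between ZT12 and ZT0 was -1.31 ± 0.55 on the log2 scale (limma adjusted p = 0.230, unadjusted p = 0.0365).

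Me1 encodes the cytosolic malic enzyme, a source of NADPH for fatty acid synthesis (chr9:86474983-86589830, minus strand). Its signal was 10.6 and 9.2 rpbp at ZT0, 7.8 and 2.4 at ZT4, 8.2 and 55.3 at ZT8, 0.2 and 1.4 at ZT12, 0.6 and 2.0 at ZT16, and 14.1 and 10.8 at ZT20. The 4 libraries of ZT12 and ZT16 were at 2.0 rpbp or less and lay below every library of the other times. It was the only one of the 10 genes to differ between time points by limma's F-test (adjusted p = 0.0416), where 7.65% of all tested symbols passed. At an unadjusted p under 0.05 there were 6 of the 10 (Elovl5, Fasn, Scd1, Acaca, Thrsp and Me1), against 27.6% of the tested symbols. The call for Me1 was lost in 12 of 22 other settings, with adjusted p from 0.0145 to 0.146, among them removal of the GC trend (0.0639) and a pseudocount of 3 (0.0624).

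Acaca and Acacb encode the 2 acetyl-CoA carboxylases, the enzymes of the committed step, of which the first supplies malonyl-CoA for synthesis and the second lies at the mitochondria, where malonyl-CoA restrains fatty acid oxidation. Acaca (chr11:83943174-84215153, plus strand) was at 11.7 and 7.1 rpbp at ZT0, 5.7 and 5.0 at ZT4, 6.3 and 21 at ZT8, 2.6 and 2.9 at ZT12, 4.7 and 4.0 at ZT16, and 9.4 and 7.2 at ZT20. Both ZT12 libraries were the lowest of all 12. Its mean was 9.40 ± 3.25 rpbp at ZT0 and 2.75 ± 0.212 at ZT12 (SD, n = 2), a log2 difference of -1.44 ± 0.42 with a limma adjusted p of 0.0887.

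Acacb (chr5:114615527-114700767, plus strand) was at 8.8 and 8.4 rpbp at ZT0, 4.9 and 2.9 at ZT4, 3.3 and 22.7 at ZT8, 3.6 and 5.8 at ZT12, 10.3 and 7.9 at ZT16, and 13.1 and 7.9 at ZT20. In contrast to Acaca, its values at ZT16 overlapped those at ZT0 and both were above both ZT4 libraries (log2 difference 1.06 ± 0.62, limma adjusted p = 0.361). Its mean over the dark times was 0.14 ± 0.36 above that over the light times on the log2 scale (limma adjusted p = 0.859).

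Fasn encodes the fatty acid synthase and had the highest mean signal of the 10 genes, 76.8 rpbp, a scale per length of exon (chr11:120667272-120685861, minus strand). Its signal was 113.9 and 156.2 rpbp at ZT0, 54.2 and 22 at ZT4, 37.6 and 192.8 at ZT8, 11.2 and 26.4 at ZT12, 52.2 and 8.4 at ZT16, and 176.6 and 70.3 at ZT20. All ZT0 and ZT20 libraries were above all ZT4, ZT12 and ZT16 libraries. The mean of 135.1 ± 29.9 rpbp at ZT0 stood against 18.8 ± 10.7 at ZT12, a log2 difference of -2.88 ± 0.91 (limma adjusted p = 0.112, unadjusted p = 0.0101).

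Elovl6 and Elovl5 encode elongases, the first acting on saturated and monounsaturated acids such as palmitate and the second on polyunsaturated acids. Elovl6 (chr3:129235304-129341411, plus strand) was at 9.1 and 4.8 rpbp at ZT0, 5.7 and 2.1 at ZT4, 5.8 and 42.2 at ZT8, 1.7 and 3.4 at ZT12, 4.2 and 3.6 at ZT16, and 9.6 and 5.1 at ZT20. Apart from replicate 2 of ZT8 it was below 10 rpbp in every library. Elovl5 (chr9:77765175-77832320, plus strand) was at 16.3 and 13.6 rpbp at ZT0, 7.0 and 13.9 at ZT4, 5.3 and 22.2 at ZT8, 4.6 and 3.2 at ZT12, 5.8 and 1.1 at ZT16, and 15.1 and 12.2 at ZT20. Its 4 libraries of ZT12 and ZT16 lay at 5.8 rpbp or less, and its log2 difference was -1.71 ± 0.63 between ZT12 and ZT0 (limma adjusted p = 0.169) and -1.53 ± 0.63 between ZT16 and ZT4 (adjusted p = 0.223).

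Scd1 encodes stearoyl-CoA desaturase, which makes oleate from stearate (chr19:44468945-44482043, minus strand). Its signal was 66.6 and 86.1 rpbp at ZT0, 25.6 and 20.8 at ZT4, 13.0 and 183.3 at ZT8, 1.3 and 1.6 at ZT12, 48.7 and 1.5 at ZT16, and 146.0 and 46.6 at ZT20. The ZT12 pair was both very low and very close together, while the replicates of ZT16 were at 48.7 and 1.5. The means of 76.4 ± 13.8 rpbp at ZT0 and 1.45 ± 0.212 at ZT12 (SD, n = 2) were the furthest apart among the 10 genes, by -4.97 ± 1.32 on the log2 scale, with a limma adjusted p of 0.0664 and an unadjusted p of 0.00360.

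Over the 3 comparisons across 12 hr, none of the 10 genes passed an adjusted p of 0.05 in limma. From ZT0 to ZT12, 1.59% of tested symbols were called lower. There 9 of the 10 genes had a difference below 0 (47.1% of tested symbols), and 6 (Acly, Me1, Acaca, Fasn, Elovl5 and Scd1) were lower at an unadjusted p under 0.05, against 7.65% of tested symbols. The median log2 difference was -1.37 for the 10 genes and 0.03 for all tested symbols.

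Between ZT16 and ZT4 the median was -0.66 for the 10 genes and -0.20 for all, with 7 of the 10 below 0 against 70.4% of tested symbols. No gene was called (1.34% of tested symbols were called lower), and Elovl5 was the only gene lower at an unadjusted p under 0.05, where 14.8% of tested symbols were. Thrsp and Acacb had both ZT16 libraries above both ZT4 libraries, as 10.6% of tested symbols did.

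Between ZT20 and ZT8 the median was -0.11 for the 10 genes and 0.0037 for all, with 5 of 10 below 0 (49.4% of tested symbols). No gene was called, where 1.16% of tested symbols were called higher and 0.414% lower, and none passed an unadjusted p of 0.05, where 7.37% were higher and 5.2% lower. The libraries of these times overlapped for all 10 genes, since none had both ZT20 libraries above both of ZT8 (20.8% of tested symbols) or below them (17.6%).

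**Figure D2:**
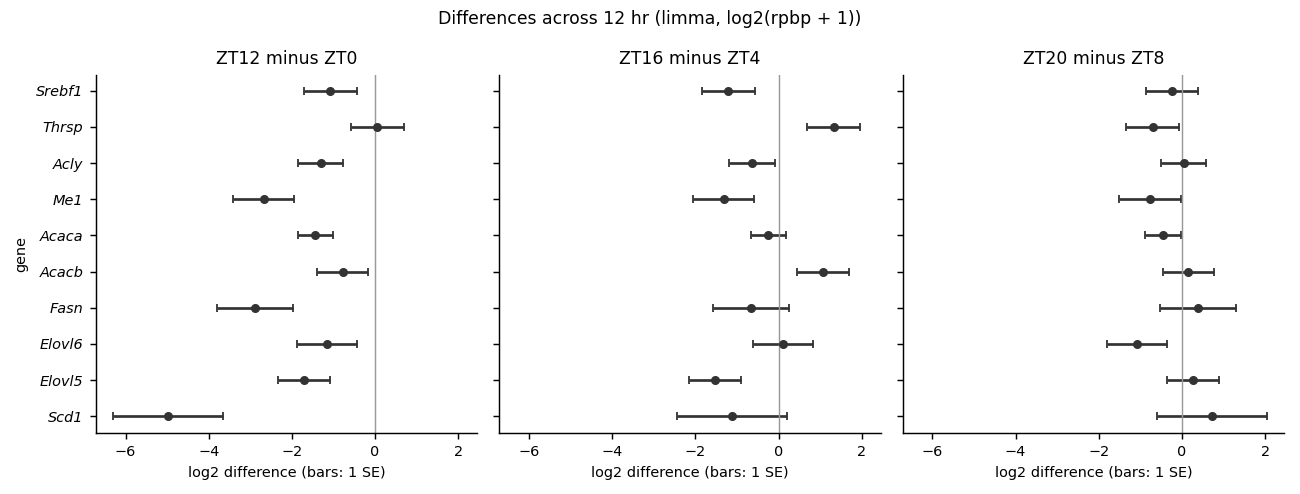
Differences in log2(rpbp + 1) between times 12 hr apart for the 10 genes, from limma, with bars of 1 SE. The left panel (ZT12 minus ZT0) has 9 of 10 genes below 0, from -0.78 for Acacb to -4.97 for Scd1, with Thrsp at 0.05, and the right panel (ZT20 minus ZT8) has 5 of 10 below 0.

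The mean over the dark times (ZT12, ZT16 and ZT20) was below that over the light times (ZT0, ZT4 and ZT8) for 8 of the 10 genes, against 58.2% of tested symbols. None passed an adjusted p of 0.05 (2.37% of tested symbols were called lower), and 5 (Elovl5, Srebf1, Scd1, Acaca and Me1) were lower at an unadjusted p under 0.05, against 12.4% of tested symbols. Me1 came closest, at -1.59 ± 0.43 (limma adjusted p = 0.0682), and Scd1 had the widest difference, -1.79 ± 0.76 (adjusted p = 0.217). ZT12 and ZT0 lie at lights off and lights on, so this contrast does not set full night against full day. It is the mean of the 12-hr pairs, and ZT12 against ZT0 had the widest median (-1.37, with -0.66 and -0.11 for the others). The 12-hr difference depended on the pair of times for none of the 10 at an adjusted p under 0.05 (3.77% of tested symbols). At limma's unadjusted p under 0.05 it did so for Scd1 alone (adjusted p = 0.219), where 18.7% of tested symbols had an unadjusted p under 0.05.

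Leaving out either ZT8 library left 1 library at ZT8, which adds nothing to the estimate of the spread. Both fits then compare ZT12 with ZT0 from the same libraries and nearly the same spread. They are thus 1 result and not separate evidence. The ZT12 minus ZT0 differences were as before, as for Acaca (-1.44), Me1 (-2.68) and Scd1 (-4.97). The SE was smaller, as for Acaca at 0.24 in both fits against 0.42 with all libraries. The ZT8 pair, which lay far apart in these genes, no longer entered it. The dark-light differences did depend on which ZT8 library was left out. For most genes they were nearer to 0 without replicate 2 than without replicate 1. Elovl6 was at -0.27 without replicate 2 against -1.16 without replicate 1, and Acaca at -0.45 against -0.98. Thrsp (0.44 against 0.01) and Acacb (0.56 against -0.27) were further from 0 without replicate 2.

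A daily rhythm was tested with F24, the share of the variance of the 12 values that lies in a 24-hr cosine, by exact enumeration of the ways to assign the values to the times. The limits for a rhythm were F24 above 0.45, an unadjusted p below 0.05 and a highest value of over 1.5 times the lowest one. None of the 10 genes was called, against 15.1% of tested symbols, and none had an unadjusted p under 0.05 (16.4% of tested symbols). F24 ran from 0.0111 for Acacb to 0.371 for Srebf1, with a median of 0.116 against 0.222 for all tested symbols. The lowest p was that of Srebf1, 0.127 by exact permutation, with a phase of 2.34 hr.

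This outcome changed most when 1 library was left out. Without replicate 2 of ZT8, 7 of the 10 genes were called rhythmic, against 20.4% of the symbols tested in the same way. The strongest were Acacb (F24 = 0.786, exact permutation p = 0.00302), Elovl5 (0.770, p = 0.00953) and Acaca (0.659, p = 0.00994). Fasn (0.612, p = 0.0207), Scd1 (0.606, p = 0.0127), Me1 (0.559, p = 0.0478) and Acly (0.515, p = 0.0383) were called too in the exact test. Their phases fell in the late night, from 19.6 hr for Acacb to 23.7 hr for Elovl5. Srebf1 (0.497, p = 0.0616), Elovl6 (0.372, p = 0.162) and Thrsp (0.0694, p = 0.749) were not called in the exact test. With replicate 2 of ZT16 left out as well, 6 were called (18.7% of symbols), and with the GC trend removed and replicate 2 of ZT8 left out there were 7, with Srebf1 in place of Me1 (20.1%). Neither of these last settings was planned, and both were chosen after the libraries were seen to stand apart. The p-values are not adjusted, as in the criteria of the study.

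The replicate series, each of 6 libraries, also placed the peak differently. In the first series, 9 of the 10 genes were highest at ZT20 or ZT0 and Srebf1 at ZT4, and the cosine phases ran from 17.6 hr (Thrsp) to 0.253 hr (Me1). In the second, 9 were highest at ZT8 and Srebf1 at ZT0, and phases ran from 3.81 hr (Srebf1) to 8.71 hr (Acacb). F24 in that second series ran from 0.176 (Acacb) to 0.586 (Elovl5), so its phases belong to fits that were not called rhythmic. In the first series the F24 of Thrsp was 0.0288. The phases of the 2 series were 4.05 hr (Srebf1) to 11.2 hr (Acacb) apart. With the first series alone, Elovl5 met the criteria, and with the second none did. Among the 720 orders of 6 values, rotations and mirror images share 1 F24. The p-value can thus take few values, and that of Elovl5 was the lowest possible. Acacb and Scd1 had an F24 of 0.946 and 0.789 in the first series but missed the limit on p. The share of all tested symbols that met the criteria in 1 series is not given here.

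**Figure D3:**
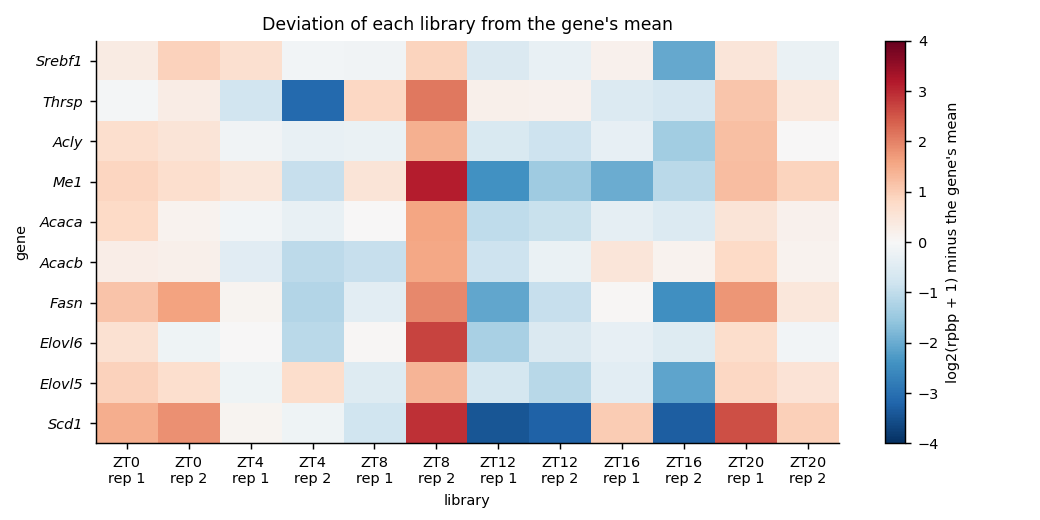
Deviation of each library (columns, in order of time and replicate) from the mean of the gene over the 12 libraries, in log2(rpbp + 1), red above and blue below. Columns of ZT12 are blue for most genes, the column of ZT8 replicate 2 is red for all 10 genes and the column of ZT20 replicate 1 is red for all 10 as well.

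Variation over all 12 libraries was wide in these genes, between times and between replicates. The SD over the 12 libraries exceeded 0.5 of the mean in 9 of the 10 genes, against 11.5% of tested symbols. Differences between times held a median of 65.9% of the sum of squares of log2(rpbp + 1) in the 10 genes and 64.2% in all tested symbols. At ZT8, replicate 2 was over 2-fold higher than replicate 1 in 10 of 10 genes on the log2(rpbp + 1) scale, against 3.06% of tested symbols, and 9 of 10 had their highest value there, against 19.9%. Of the 34 tested symbols on the list of other pathway genes described last, 7 were over 2-fold higher too, among them Insig1 at 18.3 and 70.5 rpbp. Another of the 7, Pnpla3, passed the limit of 6 rpbp through that library alone (7.9 rpbp, 3.4 or less in every other). It was thus tested only because it was high there. At ZT16, replicate 2 was over 2-fold lower in 5 (Srebf1, Acly, Fasn, Elovl5 and Scd1), against 6.22%. At ZT4 it was over 2-fold lower in 4 (Thrsp, Me1, Fasn and Elovl6), against 1.34%, and at ZT20 in 3 (Acly, Fasn and Scd1), against 1.38%. At ZT0 none of the 10 differed by over 2-fold between replicates (1.73% of tested symbols higher and 0.78% lower).

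Because replicate 2 of ZT8 had a GC trend, its difference from replicate 1 was set against symbols of like GC content. Exon GC ran from 44.0% (Elovl6) to 58.1% (Srebf1), and for Fasn (57.4%) the symbols of its bin had a median difference of -0.37, where Fasn was at 2.33. Each of the 10 genes was above nearly all of the 307 or 308 symbols in its own bin, with 98.4% as the lowest share. The difference exceeded the bin median by 1.43 (Srebf1) to 3.58 (Scd1) on the log2 scale. The same library had the lowest summed signal of the 6 Kupffer cell and macrophage markers (21.2 rpbp, against 71.8 in replicate 1 of ZT8, the highest) and of the 5 endothelial markers (14.4 rpbp, others 21.3 to 31.4). The macrophage markers did not run one way: Marco was at 20.5 rpbp in replicate 1 and 0.1 in replicate 2, and Cd5l, Emr1 and Csf1r were lower in replicate 2 too, while Clec4f (1.6 and 6.5) and Vsig4 (1.5 and 3.2) were higher. Replicate 1 itself stood apart in Marco, Cd5l (23.9 rpbp) and Emr1 (17.3), which were at most 1.8, 10 and 5.1 in every other library. Clec4f and Vsig4 were at their lowest in replicate 1, and Csf1r (7.0) was within the range of the other libraries. The hepatocyte markers summed to 1006.7 rpbp in replicate 1 and 1622.5 in replicate 2, and did not run one way either. Alb (570.5 and 951.7), Ttr, Apob and Cps1 were higher in replicate 2. Apoa1 (74.9 and 55.1), Hnf4a (36.4 and 29) and Serpina1a (3.7 and 2.5) were lower. The part of these cells in the difference was not tested.

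**Figure D4:**
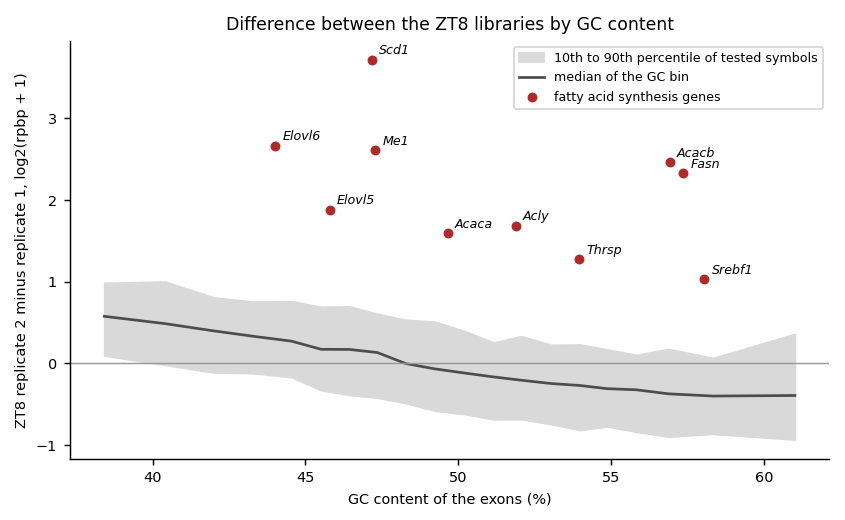
Difference between the ZT8 libraries (replicate 2 minus replicate 1, log2(rpbp + 1)) against the GC content of the exons in percent, with the median of 20 GC bins (line), their 10th to 90th percentiles (grey) and the 10 genes (red). The line falls with GC content while the 10 genes lie above the grey band, from 1.03 (Srebf1) to 3.72 (Scd1).

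The genes moved together over the 12 libraries, though pairs of other tested symbols were not examined for comparison. Pearson's r of log2(rpbp + 1) had a median of 0.746 over the 45 pairs and ran from 0.209 (Thrsp with Elovl5) to 0.931 (Fasn with Scd1), and the points share the libraries that stand apart. Thrsp (median r of 0.532 with the others) and Srebf1 (0.60) were the least alike, and Acaca (0.830) and Fasn (0.824) the most. Of all other tested symbols, those most like Fasn were Aldh1a7 (r = 0.932), Rab1 and BC114417 (0.92), Tfg (0.919) and Rspry1 (0.918), of which BC114417 lies inside Scd1. Those most like Srebf1 were Senp5 (0.935), Tbccd1 (0.929), Apoc1 (0.922), 3110004L20Rik (0.915) and Gpam (0.914), the last encoding the acyltransferase that starts glycerolipid synthesis.

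Promoter sequence is shown for the synthase gene Fasn, for Acly at the entry to the pathway, for Elovl5, which had the E-box, and for Thrsp, whose time course differed, so that their motifs can be read beside the values. The 250 bases before the start of each gene are from RefSeq (GRCm38.p6), at chr11:120824548-120824797 (Fasn), chr11:100528001-100528250 (Acly), chr9:77917115-77917364 (Elovl5) and chr7:97417551-97417800 (Thrsp), of which only Elovl5 is on the plus strand. They are written 5′ to 3′ in the direction of the gene, with capitals for any match of the motifs named after them, on either strand.
Fasn: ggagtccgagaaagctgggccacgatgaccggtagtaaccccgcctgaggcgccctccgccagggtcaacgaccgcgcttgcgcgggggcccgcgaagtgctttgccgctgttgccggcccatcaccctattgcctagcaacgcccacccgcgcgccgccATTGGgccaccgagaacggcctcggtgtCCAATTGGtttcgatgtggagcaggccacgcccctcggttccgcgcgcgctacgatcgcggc
Acly: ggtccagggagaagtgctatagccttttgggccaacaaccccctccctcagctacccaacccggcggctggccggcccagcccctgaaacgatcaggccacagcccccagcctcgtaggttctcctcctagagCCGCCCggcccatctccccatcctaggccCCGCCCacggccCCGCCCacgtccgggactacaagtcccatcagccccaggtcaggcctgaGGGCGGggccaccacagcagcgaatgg
Elovl5: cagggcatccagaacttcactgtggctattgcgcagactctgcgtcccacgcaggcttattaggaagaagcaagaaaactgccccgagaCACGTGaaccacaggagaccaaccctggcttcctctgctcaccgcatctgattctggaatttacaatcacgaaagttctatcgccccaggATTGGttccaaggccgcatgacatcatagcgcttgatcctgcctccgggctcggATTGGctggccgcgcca
Thrsp: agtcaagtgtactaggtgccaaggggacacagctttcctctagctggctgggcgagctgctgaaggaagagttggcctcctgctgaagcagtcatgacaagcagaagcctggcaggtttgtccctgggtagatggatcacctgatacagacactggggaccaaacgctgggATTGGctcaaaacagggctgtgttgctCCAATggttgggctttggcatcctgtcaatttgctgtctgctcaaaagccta

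RefSeq promoters were found for 9 of the 10 genes, 12 promoters in all, and there was no entry for Scd1. The motifs were the E-box CACGTG, the SREBP motif TCACNCCAC, the CCAAT box CCAAT and the GC box GGGCGG, searched on both strands. The CCAAT box was in promoters of 6 genes (Srebf1, Thrsp, Me1, Acacb, Fasn and Elovl5), 7 of the 12 promoters, and in 33.8% of all 32851 promoters. Fasn held 3 within 90 bases of its start, of which 2 on opposite strands overlap in CCAATTGG. The GC box was in 4 promoters of Srebf1, Acly and Me1 (32.7% of all), with 4 matches in Acly. The E-box was in that of Elovl5 only (6.02% of all), from base 161 to base 156 before the start, and the SREBP motif in none (1.05% of all). A match describes the letters of this window and no more.

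Signal was also examined in the symbols next to each gene, since the deposited values ignore strand and nascent RNA can run past the end of a gene. Rwdd2a (chr9:86465660-86468503, plus strand), a gene 6479 bp beyond the 3′ end of Me1 on the other strand, followed Me1 in every library, at 10.1 and 12.2 rpbp at ZT0, 7.3 and 2.0 at ZT4, 7.9 and 66.1 at ZT8, 0.0 and 0.7 at ZT12, 0.7 and 1.4 at ZT16, and 13.2 and 10.8 at ZT20 (r = 0.994). It passed the F-test as well (limma adjusted p = 0.0328) and was lower at ZT12 than at ZT0 by limma (-3.21 ± 0.77, adjusted p = 0.0443). Pgm3, at 9548 bp, and Dopey1, at 26745 bp, were looked at after their values were seen. Pgm3 was at 73.7 rpbp in replicate 2 of ZT8 and at 3.7 to 11.1 in the others, and Dopey1 at 27.7 against 4.9 to 9.9, so the excess of that library extended over 4 adjoining genes. Whether these genes carry signal of Me1 was not tested.

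**Figure D5:**
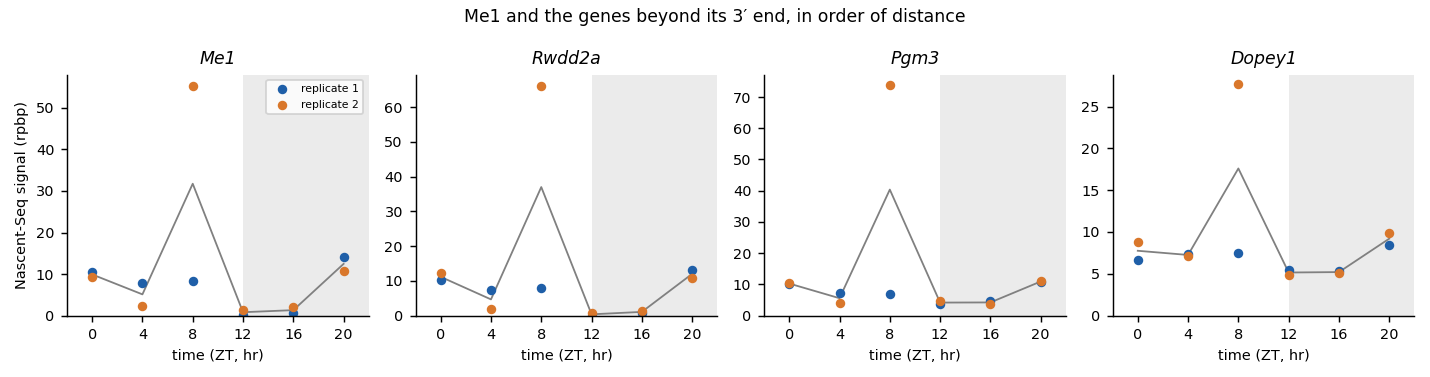
Nascent-Seq signal (rpbp, linear axes from 0) of Me1 and of Rwdd2a, Pgm3 and Dopey1, the genes beyond its 3′ end, against zeitgeber time, with 1 point per library, a line through the means and grey for the night. Rwdd2a matches Me1 point for point, while Pgm3 and Dopey1 keep a signal of 3.7 and 4.9 rpbp or more at all times and share the high value of ZT8 replicate 2.

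Among the nearest symbols outside the other 9 genes r was at most 0.598 (Ttc25 beside Acly, at 0.6 rpbp or less). Symbols that lie within a gene, FAE in Elovl6 (r = 0.9996) and BC114417 in Scd1 (r = 0.999), repeat its signal and are no separate evidence. Rai1, which overlaps the end of Srebf1, had 6.2 to 13.6 rpbp and did not follow it (r = -0.06). Ccdc57, 1994 bp upstream of Fasn, had 2.1 to 6.0 rpbp and was highest at ZT12, where Fasn was low (r = -0.45).

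Other genes that supply or control the pathway were taken from a list of 53, of which 51 were in the table and 34 were tested. By F24, 7 of the 34 were rhythmic (15.1% of all tested symbols): Elovl3, Fads2, Fads3, Insig2, Mbtps1, Ppargc1b and Ptplad1. These calls rest on unadjusted p, and the adjusted p of F24 ran from 0.0950 (Fads2) to 0.281 (Ppargc1b). Elovl3 and Ppargc1b lost the call without some single libraries, ZT8 replicate 1 among them, while the others kept theirs. Insig2, which holds SREBP precursors in the endoplasmic reticulum, had a late-night phase of 22.9 hr and its lowest mean at ZT12, with 40.7 and 60.4 rpbp at ZT0, 39.1 and 34.8 at ZT4, 14.5 and 28.4 at ZT8, 12.1 and 8.1 at ZT12, 22.9 and 7.1 at ZT16, and 65.0 and 72.5 at ZT20. It was the only one of the 34 to pass limma's F-test (adjusted p = 0.0270), and it was lower at ZT12 than at ZT0 (log2 difference -2.21 ± 0.47, adjusted p = 0.0279). These calls were lost in 7 of 22 and 5 of 22 other settings, with adjusted p up to 0.104 and 0.149. In it, unlike in the 10 genes, both ZT20 libraries were clear of both ZT8 libraries.

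Elovl3, an elongase of very long saturated acids, was at 193.1 and 331.2 rpbp at ZT20 against 6.7 and 8.7 at ZT8, a log2 difference of 4.88 ± 1.03 (limma adjusted p = 0.0493, where 1.16% of tested symbols were called higher). This call was lost in 16 of 22 other settings (adjusted p from 0.00357 to 0.230), among them the replicate block (0.0802) and removal of the GC trend (0.0600). At ZT12 its replicates were 85.6 and 3.8 rpbp. The desaturase genes among the 7 had daytime phases. Fads3 had a phase of 3.98 hr and was lower over the dark times (-0.93 ± 0.22, limma adjusted p = 0.0450), a call lost in 14 of 22 other settings (adjusted p up to 0.124), and Fads2 had a phase of 7.13 hr, with 47.2 and 74.0 rpbp at ZT8 and 22.4 and 21.6 at ZT16. Ptplad1, of the dehydratase family that serves fatty acid elongation (9.19 hr), and the coactivator gene Ppargc1b (9.29 hr) peaked later, and Ppargc1b was higher at ZT12 than at ZT0 (1.27 ± 0.30, limma adjusted p = 0.0410, 2.85% of tested symbols called higher), a call lost in 10 of 21 other settings (adjusted p up to 0.191). Mbtps1, which encodes the protease that first cleaves SREBP, kept between 7.2 and 12.0 rpbp with a phase of 5.42 hr.

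Of the other genes on the list, Mlxipl, the gene of ChREBP, was at 96.6 to 214.7 rpbp and was not called in any comparison (F24 = 0.0657, exact permutation p = 0.727). Slc25a1, the mitochondrial citrate carrier, ranged from 5.1 to 10.2 rpbp (F24 p = 0.0759 by exact permutation) and G6pdx, of the pentose phosphate pathway, from 5.5 to 9.2 rpbp. Acss2, the acetyl-CoA synthetase, reached 55.8 rpbp in replicate 1 of ZT20 and 34.1 in replicate 2 of ZT8, the libraries in which all 10 genes were above their own mean, and was at 5.1 to 19.7 in the other 10. Mid1ip1, a relative of Thrsp, was over 2-fold higher in replicate 2 than in replicate 1 at ZT0, ZT8 and ZT12 and lower at ZT16.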

How the data were processed

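Nascent RNA of 12 mouse liver libraries was analysed, grouped by the time and replicate in the sample labels. According to the submitters' processing notes, CASAVA 1.7 and TopHat were used with the mm9 genome. The authors deposited a signal, the coverage of uniquely mapped reads over the exons of a gene symbol divided by exon length (rpbp), scaled to one number of reads per library, without strand and to 1 decimal, with the lanes of ZT8 and ZT20 merged. Depth per library was not used. The p-values, F24 and phases that the authors deposited were not used.

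Here 27919 blank lines were dropped, and the tests took symbols whose highest value exceeded 6 rpbp. F24 was computed on linear values with one-sided p from full enumeration of the assignments. Differences were tested with limma 3.58.1 in R 4.3.3 on log2(rpbp + 1), all 6 time points in 1 fit, with Benjamini-Hochberg adjustment over the 6284 symbols. A fold on this scale understates changes of low genes. Both were tested on simulated data. Strand and GC content were read from GENCODE M1 (mm9), with GC known for 97.9% of tested symbols. Gene positions came with the deposited signal, and coordinates count from 1. All 10 genes and the genes called on the pathway list were named, with Mlxipl, Insig2, Mid1ip1, Acss2, Slc25a1 and G6pdx, neighbours, and the 5 symbols most like Fasn and Srebf1. The genes and lists were chosen with earlier results of these data known.

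Same-numbered libraries deviated together at some times only: the correlation of the difference between replicates between time points was over 0.1 in 5 of 15 pairs of times, with 0.202 to 0.320 among ZT8, ZT16 and ZT20, and as low as -0.117, so replicate numbers were not taken to pair libraries. The alternatives were filters at 3 and 12 rpbp or none, pseudocounts of 0.1 and 3, rescaling by median ratios, removal of the GC trend in 20 bins, a replicate block, lanes as a block, log2 values, time-point means, adjusted p, single series and each library left out. Settings without ZT8 replicate 2 and ZT16 replicate 2, or with the GC trend removed and without ZT8 replicate 2, and those for the pathway list, were added after seeing the data.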

Additional observations from a re-analysis of the deposited data

Results flagged for a closer look

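The difference between times 12 hr apart depended on the pair of times for 3 of the 34 genes on the pathway list. By limma's F-test of the differences among the 3 pairs these were Insig2 (adjusted p = 0.0194), Elovl3 (0.0410) and Ppargc1b (0.0490). In the same test 3.77% of all tested symbols were called. Insig2 was lower at ZT12 than at ZT0 (-2.21 ± 0.47 on the log2 scale) and higher at ZT20 than at ZT8 (1.71 ± 0.47). Elovl3 was at -2.22 ± 1.03 between ZT12 and ZT0 and at 4.88 ± 1.03 between ZT20 and ZT8. Ppargc1b was higher at ZT12 than at ZT0 (1.27 ± 0.30) and at -0.62 ± 0.30 between ZT16 and ZT4. Over the other settings the adjusted p was 0.00231 to 0.103 for Insig2, 0.00412 to 0.183 for Elovl3 and 0.0190 to 0.153 for Ppargc1b, and the call was lost in 6 of 22, 14 of 22 and 15 of 21 of them.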

How the results depend on the processing

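With 2 libraries per time, the calls for the 10 genes moved with single libraries. The share of all tested symbols called by limma moved with the library left out as well. Changes in these counts are therefore not a trait of the 10 genes alone. With each library left out in turn, the number called ranged from 0 to 4 for any difference between times, 0 to 3 for ZT12 against ZT0, 0 to 1 for ZT16 against ZT4, 0 to 4 for dark against light, 0 to 1 for the difference among pairs and 0 to 7 for rhythm, and on the pathway list from 0 to 4 for any difference and 5 to 9 for rhythm. In these fits, the share of all tested symbols called was 2.67% to 10.7% for any difference and 0.399% to 6.3% for ZT12 against ZT0. It was 0.352% to 4.17% for ZT16 against ZT4, 1.61% to 5.81% for dark against light and 1.17% to 7.89% for pairs. Both directions are counted. For rhythm the share was taken only without ZT8 replicate 2, at 20.4%. The largest counts came without ZT8 replicate 1 (any difference, dark against light), without either ZT8 library (ZT12 against ZT0) and without ZT8 replicate 2 (rhythm). For ZT12 against ZT0, the fits without either ZT8 library rest on nearly the same spread and are not separate evidence. The 1 call for any difference, Me1 (7.65% of tested symbols called), became 0 with no filter (0.641%) and with median-ratio scaling (7.81%). It also became 0 with the GC trend removed (6.52%) and with the replicate block (7.24%), which left no other call changed among the 10 genes. With a pseudocount of 3 the 1 call was Thrsp in place of Me1, and with the GC trend removed and without ZT8 replicate 2 it was Acacb. On the pathway list the 1 call became 0 with no filter and 2 with a pseudocount of 3. With the first series alone 1 gene, Elovl5, was rhythmic, and the share of tested symbols in that setting is not given here. Without ZT8 replicate 2 and ZT16 replicate 2, the counts were 4 for any difference (7.84% of tested symbols called), 6 for ZT12 against ZT0, all lower (3.48%), 5 for the difference among pairs (6.75%) and 6 for rhythm (18.7%), and 2 for any difference on the list. With the GC trend removed and without ZT8 replicate 2 they were 3 for ZT12 against ZT0, all lower (2.78%), 1 for pairs (4.37%) and 7 for rhythm (20.1%). The cause of these changes was not tested.

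Uncalled differences changed sign in 33 cases. From ZT0 to ZT12, that of Thrsp was -0.039 with the GC trend removed, with or without ZT8 replicate 2. Without ZT8 replicate 2 and ZT16 replicate 2, the difference between ZT16 and ZT4 was 0.58 for Fasn and 1.05 for Scd1, and that between ZT20 and ZT8 was 0.27 for Srebf1, 0.54 for Me1, 0.34 for Acaca and 0.24 for Elovl6. With the GC trend removed and without ZT8 replicate 2, the latter were 0.32, 0.54, 0.39 and 0.13, and with the GC trend removed alone Acly was at -0.034. With each library left out, ranges that cross 0 were -0.13 to 0.24 (Thrsp, ZT12 against ZT0). For ZT16 against ZT4 they were -1.92 to 0.58 (Fasn), -0.45 to 0.66 (Elovl6) and -3.27 to 1.05 (Scd1). For ZT20 against ZT8 they were -0.76 to 0.27 (Srebf1), -0.81 to 0.88 (Acly), -2.08 to 0.54 (Me1), -1.25 to 0.34 (Acaca), -1.08 to 1.38 (Acacb), -0.78 to 1.54 (Fasn), -2.43 to 0.24 (Elovl6), -0.67 to 1.21 (Elovl5) and -1.14 to 2.58 (Scd1). For dark against light they were -0.17 to 0.61 (Thrsp) and -0.27 to 0.56 (Acacb).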
